A study of Homo sapiens with 9 samples.

Results

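The protein arginine methyltransferases and the partner proteins of PRMT5 were followed in MP41 cells, a uveal melanoma (UM) line, after transfection of a synthetic miR-16 or a control mimic. The set was made of 9 of the 14839 genes measured: PRMT1, PRMT2, PRMT3, CARM1 (also called PRMT4), PRMT5, PRMT6, PRMT7, WDR77, and CLNS1A. The set was chosen by the measured values of PRMT5, namely its high level at 0 h and its higher late values with miR-16, so these are given as a description, and the other 8 genes were added as its family and its complex. All 9 were in the table, and no filter on low values removed any of them.

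PolyA RNA was sequenced from cells transfected at 66 nM with miR-16 or with miR-CTR and collected at 6, 12, 24, and 48 h, and from 1 library labelled as the control series and collected at 0 h, before transfection. This gave 4 miR-16 and 5 miR-CTR libraries, all from the same cell line, with 1 library per condition. Wherever 4 values are given in a row, they are those of 6, 12, 24, and 48 h. No test between the mimics was made, since a fit over the 4 times would take the change of a difference with time as its error, and the intervals given cover the counting of reads only. The libraries held 20267733 to 27367162 recovered reads, and their median gene lay between 9.13 and 9.17 on the deposited scale, log2(normalised reads + 1). The melanocyte markers MLANA, PMEL, TYR, TYRP1, DCT, MITF, and SOX10 were all measured, with 0 h values from 12.29 (DCT) to 17.88 (TYRP1). Of 8 markers of other cells only CD68 (5.48 at 0 h) and COL1A1 (8.31) were in the table. The miR-16 targets CCND1, CCND3, and WEE1 had a late logFC of −0.63, −1.02, and −1.055.

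Protein arginine methyltransferases transfer methyl groups from S-adenosylmethionine (SAM) to arginines of histones, splicing factors, and other RNA-binding proteins. Type I enzymes make asymmetric dimethylarginine, the type II enzyme PRMT5 makes symmetric dimethylarginine, and the type III enzyme PRMT7 makes monomethylarginine. PRMT5 works in a complex with the WD-repeat protein WDR77, and the adaptor CLNS1A brings it the Sm proteins, whose methylation precedes the assembly of spliceosomal particles by the SMN complex.

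The sequences of the mimics are shown because a mimic acts mainly through its seed, and each difference between the mimics can come from either of them. Bases 2 to 8, the seed, are in capitals. The miR-16 sequence is the mature human one of RefSeq. The control sequence was taken from the study's biotinylated mimics, whose labels appeared to be exchanged, and the transfected miR-CTR was assumed to carry the same sequence.
miR-16: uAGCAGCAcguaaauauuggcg
control: uUGUACUAcacaaaaguacug

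Exact matches to either seed were searched on the sense strand of the longest annotated 3′UTR of each gene (GENCODE 29, GRCh38). For miR-16 these were TGCTGCTA (8mer), TGCTGCT (7mer-m8), and GCTGCTA (7mer-A1), and for the control TAGTACAA, TAGTACA, and AGTACAA. The 8mer contains both 7mers and was counted once. CARM1 was the only one of the 9 genes with a miR-16 match, against 29.3% of 12027 protein-coding genes. It had 2 of them, both 7mer-m8, at chr19:10922190-10922196 and chr19:10922431-10922437 on the forward strand. A control match was found in PRMT2, PRMT5, and CLNS1A, against 14.6% of the 12027 genes. That of PRMT5 was a 7mer-m8 at chr14:22920844-22920850 on the reverse strand, which is bases 54 to 60 of a 393-base 3′UTR. The match of PRMT2 was also a 7mer-m8, at chr21:46664864-46664870 on the forward strand, and that of CLNS1A was a 7mer-A1 at chr11:77615293-77615299 on the reverse strand. The matches are in capitals, with 10 bases on each side.
CARM1, first miR-16 match: ggacgtgacaTGCTGCTttttttaatt
CARM1, second miR-16 match: ccctgcctctTGCTGCTgtcctgtccc
PRMT5, control match: tctgctcctgTAGTACAgaaggtgcag
PRMT2, control match: ctgcatgggaTAGTACAgttgtgtaga
CLNS1A, control match: ttcaatggccAGTACAAgagcttcccc

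A match is a stretch of letters and was not tested as a binding site. In the coding sequence, a miR-16 match was present in PRMT3 (an 8mer), PRMT6, PRMT7, and WDR77, against 39.6% of the 12027 genes. A coding match for the control was present in PRMT1 and WDR77 (both 7mer-A1), against 14.8% of these genes. PRMT5 had no miR-16 match in its 3′UTR or coding sequence, also with the 6mer GCTGCT counted. PRMT3 and PRMT7 gained a 3′UTR match for miR-16 when every annotated transcript was searched. That search was not limited to protein-coding transcripts, so such a 3′UTR can hold bases that are coding in another transcript. Its share over all genes was not computed.

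PRMT5 was followed first. It lies on chromosome 14 from 22920511 to 22929585 on the reverse strand (ENSG00000100462.15). Its value was 12.58 at 0 h. In the miR-CTR series it was then 12.38, 12.40, 12.0, and 11.73. The miR-16 series gave 12.66, 12.64, 12.56, and 12.26. The miR-16 library was the higher one at each of the 4 times, and the lowest miR-16 value was below the 2 earlier miR-CTR values. The logFC, which is the miR-16 minus the miR-CTR value, took the values 0.28, 0.24, 0.56, and 0.53. Averaged over 6 and 12 h (early) it was 0.26, and averaged over 24 and 48 h (late) it was 0.545, a 1.46-fold difference with a counting standard error of 0.0216. These values rested on 3900 to 6957 reads.

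With 0.5 as the threshold, PRMT5 was the single gene of the 9 above it in the late window, where 7.76% of all 14839 genes were. None of the 9 lay below −0.5, where 5.73% of all genes were. PRMT5 also passed 0.5 at 24 h, where 7.24% of all genes were above 0.5 and 5.26% below −0.5, and at 48 h, where these shares were 10.4% and 8.96%. Both times were passed upward by 4.03% of all genes. In the early window none of the 9 passed 0.5 in either direction, against 3.48% of all genes. The median late logFC of the 9 genes was 0.035, beside 0.005 over all genes. Without PRMT5, whose values led to the choice of the set, the median was −0.005.

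**Figure D1:**
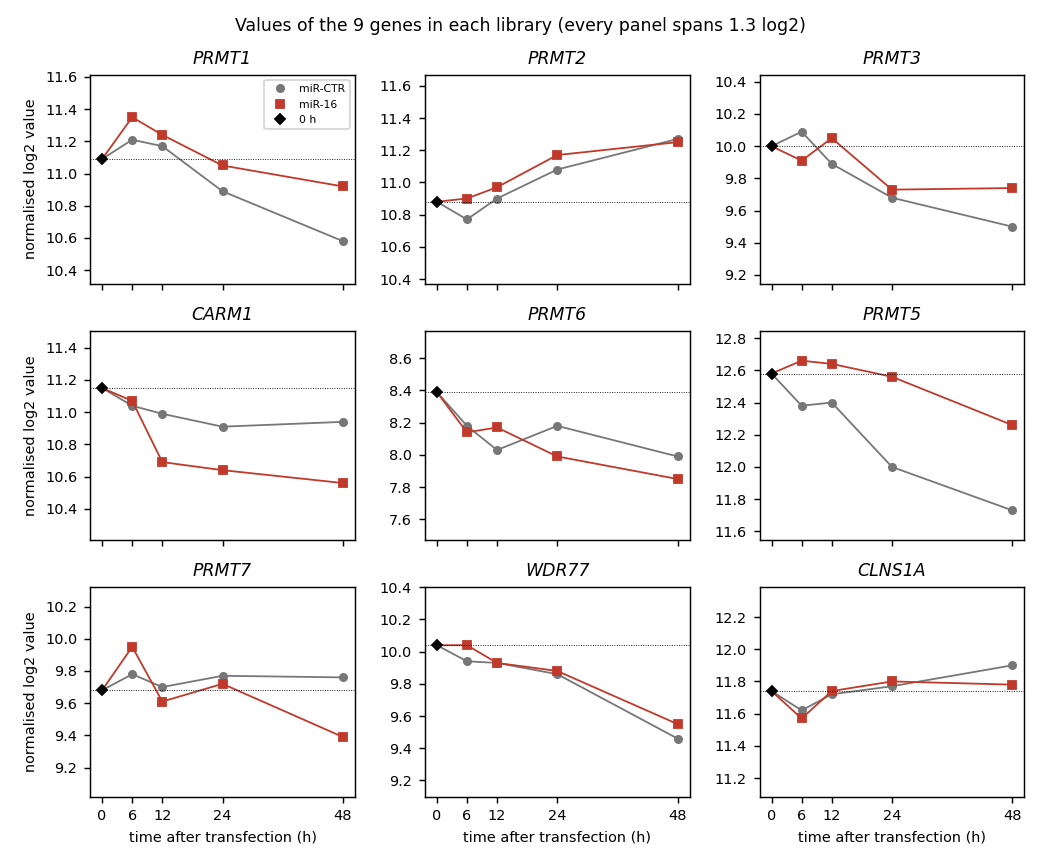
Normalised log2 value (y axis) of each of the 9 genes against the time after transfection in hours (x axis), with 1 point per library, for miR-CTR (circles), miR-16 (squares), and the shared 0 h library (diamond and dotted line). In PRMT5 the miR-CTR points lead from 12.58 to 11.73 and the miR-16 points to 12.26, whereas in WDR77 and CLNS1A the points of both mimics lie close together.

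The change was then read from the 0 h library, which both mimics share, so that the values of the mimics from 0 h are not independent of each other. PRMT5 stood at −0.715 from 0 h in the late miR-CTR libraries (counting standard error 0.0248) and at −0.17 in the late miR-16 libraries (0.0236). At 48 h the miR-CTR level was 0.555 times that of 0 h and the miR-16 level 0.801 times. PRMT5 was thus below 0 h in the late libraries of both mimics, and further below with miR-CTR. The 0 h cells had not been transfected, so time in culture, the transfection, and the mimic cannot be told apart in this comparison. In bulk RNA, fewer cells of a kind and less RNA per cell cannot be told apart either.

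PRMT5 was the only one of the 9 below −0.5 from 0 h in the late miR-CTR libraries, where 9.79% of all genes were, and none was above 0.5 (11% of all genes). With miR-16, CARM1 was the only one below −0.5 (11.7% of all genes), and none was above 0.5 (14.1%). At 48 h alone more genes were below −0.5. With miR-CTR these were PRMT5 (−0.85), WDR77 (−0.58), and PRMT1 (−0.51), beside 13.9% of all genes. With miR-16 they were CARM1 (−0.59) and PRMT6 (−0.54), beside 16.2%. The mean of the late values was below that of 0 h for 6 of the 9 genes with miR-CTR and for 7 with miR-16. The share of all genes below 0 h was not counted. The median change from 0 h was −0.305 with miR-CTR and −0.17 with miR-16, beside 0 and −0.005 over all genes.

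**Figure D2:**
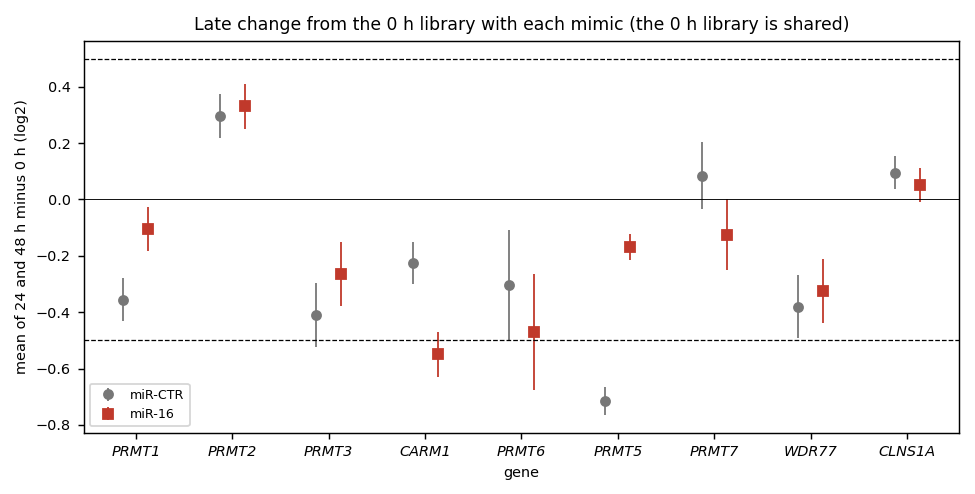
Mean of the 24 and 48 h values minus the 0 h value (y axis, log2) for each of the 9 genes (x axis), with miR-CTR (circles) and miR-16 (squares). Bars are 95% counting intervals and dashed lines mark 0.5 in both directions. PRMT5 is at −0.715 with miR-CTR and CARM1 at −0.55 with miR-16, while WDR77 is low with both mimics and PRMT2 high with both.

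The seed matches were set beside these changes. PRMT5, with a control match, was lower in the miR-CTR libraries, but PRMT2 and CLNS1A, which also have one, stood at 0.295 and 0.095 from 0 h in the late miR-CTR libraries and had a late logFC of 0.035 and −0.045. PRMT1 and WDR77, with a control match in the coding sequence only, stood at −0.355 and −0.38 from 0 h in the late miR-CTR libraries and at −0.105 and −0.325 in the late miR-16 libraries. The 1755 genes of the table with a control match had a median late logFC of 0.045, and those without −0.015. Pairing of the whole mimics with the 3′UTRs was then computed with RNAduplex. The lowest energy for PRMT5 was −15.5 kcal/mol with the control sequence and −15.2 kcal/mol with miR-16. Of 480 genes whose 3′UTR was within 10% of the length of that of PRMT5, 1.46% were as low with the control sequence (median −10.2 kcal/mol) and 43.1% were as low with miR-16 (median −14.6 kcal/mol). The computed stretches of PRMT5 are chr14:22920829-22920851 for the control and chr14:22920675-22920701 for miR-16, and they are printed because they show which bases pair, in capitals.
PRMT5 with the control: gTAGTACagaagGTGcAGTACAt
PRMT5 with miR-16: gGCCAGggggtgaggaattaGTGCTGg

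In the control pairing, 6 of the 7 seed bases were paired, with bases 69 to 74 of the 3′UTR (AGTACA), while all but the last base of the 7mer-m8 match at bases 54 to 60 paired with the mimic outside its seed. In the miR-16 pairing 5 of the 7 seed bases were paired. PRMT2, with a longer 3′UTR, had a lower energy than PRMT5 with both mimics, at −18.3 kcal/mol for the control and −20.7 kcal/mol for miR-16. The pairings were computed and not measured, and whether either one has a part in the PRMT5 values was not tested.

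Reads of overlapping genes can add to a value, since it is not given whether the counting used the strand. The antisense gene PRMT5-AS1 overlaps PRMT5 from 22918947 to 22926900 and is named here only. The nearest protein-coding genes on either side, RBM23 and HAUS4, had a late logFC of −0.035 and 0.03. WDR77 is overlapped on the opposite strand by ATP5PB (measured as ATP5F1), which was at 12.2 at 0 h and had a late logFC of 0.055. ADM5 overlaps PRMT1 on the same strand, and AQP11 overlaps CLNS1A on the opposite strand. Their late logFC was 0.115 and −0.775. Whether such reads add to the values of these members, or to ratios made from them, was not tested.

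Neither partner of PRMT5 shared its late difference between the mimics. WDR77, its WD-repeat subunit, was at 10.04 at 0 h. The miR-CTR series was 9.94, 9.93, 9.86, and 9.46, and the miR-16 series 10.04, 9.93, 9.88, and 9.55. At 48 h both libraries were the lowest of their series, at −0.58 and −0.49 from 0 h. The late logFC of 0.055 had a 95% counting interval from −0.044 to 0.15. CLNS1A, the adaptor for Sm proteins, was at 11.74 at 0 h. In its miR-CTR series it was 11.62, 11.72, 11.77, and 11.90, and in the miR-16 series 11.57, 11.74, 11.80, and 11.78. Its whole range over the 9 libraries was 0.33, the narrowest of the 9 genes, and its late logFC was −0.045 (interval −0.092 to 0.0023).

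The ratio of PRMT5 to WDR77 was computed per length, as normalised reads per kilobase of exons. It was 4.71 at 0 h (95% counting interval 4.41 to 5.03). In the miR-CTR series it was 4.39, 4.49, 3.57 (3.32 to 3.84), and 3.91 (3.62 to 4.21). In the miR-16 series it was 4.98, 5.30, 5.19 (4.84 to 5.57), and 5.30 (4.90 to 5.74). The late miR-CTR ratios were thus below the ratio of 0 h, with intervals clear of its interval. The late miR-16 ratios were above it, and their intervals overlapped that of 0 h. Such an overlap does not show that the difference lies within the counting error, and no interval of the difference was computed. In the late miR-16 libraries, WDR77 stood at −0.325 from 0 h and PRMT5 at −0.17, so neither was above 0 h there. Between the mimics, the late logFC of WDR77 was 0.055 and that of PRMT5 0.545.

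CARM1 had the lowest late logFC of the 9 genes. It is a type I enzyme and a coactivator of transcription that methylates histones and RNA-binding proteins, and lies on chromosome 19 from 10871513 to 10923070 (ENSG00000142453.11). Its value was 11.15 at 0 h. The miR-CTR series was 11.04, 10.99, 10.91, and 10.94, and the miR-16 series 11.07, 10.69, 10.64, and 10.56. The miR-16 values from 12 h on were the lowest 3 of the 9 libraries and were all below every miR-CTR value. The logFC at the 4 times was 0.03, −0.30, −0.27, and −0.38, and its late value of −0.325 (interval −0.39 to −0.26) did not reach the threshold. From 0 h, CARM1 stood at −0.55 with miR-16 and −0.225 with miR-CTR. The 3524 genes of the table with a miR-16 match in the 3′UTR had a median late logFC of −0.085, and the others 0.015. The lowest-energy pairing of miR-16 with the 3′UTR of CARM1, at −16.4 kcal/mol, covered the second of its matches with all 7 seed bases paired. YIPF2, which overlaps the end of CARM1 on the opposite strand and covers both matches, had a late logFC of −0.035.

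The other type I enzymes differed among themselves. PRMT1, the main source of asymmetric dimethylarginine in most cells, was 11.09 at 0 h. The miR-CTR series was 11.21, 11.17, 10.89, and 10.58, and the miR-16 series 11.35, 11.24, 11.05, and 10.92. The miR-16 library was the higher one at all 4 times, as for PRMT5, but by less: the late logFC was 0.25 (interval 0.18 to 0.32). PRMT1 stood at −0.355 from 0 h in the late miR-CTR libraries and at −0.105 in the late miR-16 libraries. BCL2L12, the nearest gene upstream of PRMT1 and on the same strand, had a late logFC of −0.705, and CPT1C downstream 0.37.

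PRMT3, a cytosolic enzyme that methylates a ribosomal protein, was at 10 before transfection. The miR-CTR series was 10.09, 9.89, 9.68, and 9.50, and the miR-16 series 9.91, 10.05, 9.73, and 9.74. The logFC was −0.18, 0.16, 0.05, and 0.24, so its sign at 6 h was opposite to that of the later times. The late value was 0.145 (interval 0.046 to 0.24).

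PRMT2, an enzyme with an SH3 domain and weak activity, was the one methyltransferase whose late values were above that of 0 h (10.88) in both series. The miR-CTR series was 10.77, 10.90, 11.08, and 11.27, and the miR-16 series 10.90, 10.97, 11.17, and 11.25. The late logFC was 0.035 (interval −0.024 to 0.094).

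PRMT6, a nuclear enzyme that methylates histone H3, had the fewest reads, 217 to 322 per library, and the widest counting error, 0.0906 on the late logFC. From 8.39 at 0 h, the miR-CTR series was 8.18, 8.03, 8.18, and 7.99, and the miR-16 series 8.14, 8.17, 7.99, and 7.85. Every later library was below 0 h. The late logFC of −0.165 had an interval from −0.34 to 0.012, so a difference between the mimics was not detectable at this depth.

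PRMT7, the type III enzyme, was 9.68 at 0 h. Its miR-CTR series was 9.78, 9.70, 9.77, and 9.76, and the miR-16 series 9.95, 9.61, 9.72, and 9.39. The miR-CTR values thus stayed within 0.1 of the 0 h value, and the miR-16 library of 48 h was the lowest of the 9. The logFC was 0.17, −0.09, −0.05, and −0.37, and its late mean was −0.21 (interval −0.31 to −0.11).

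The 95% counting interval of the late logFC was above 0 for 3 genes (PRMT5, PRMT1, and PRMT3), beside 29.4% of all genes. Of these, PRMT5 was the gene by which the set was chosen. The interval was below 0 for 2 (CARM1 and PRMT7), beside 30.1%, and held 0 for the other 4. Such an interval does not cover the variation between cultures, which these libraries cannot give.

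**Figure D3:**
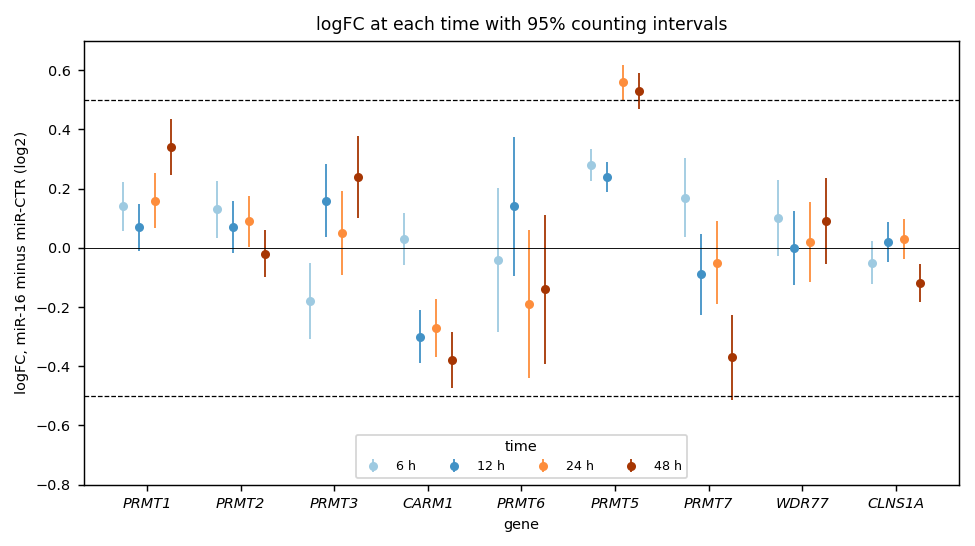
logFC of each of the 9 genes (x axis) at 6, 12, 24, and 48 h (y axis, miR-16 minus miR-CTR on the log2 scale), with 95% counting intervals as bars and dashed lines at 0.5 in both directions. PRMT5 is above the line at 24 h (0.56) and 48 h (0.53), CARM1 is between −0.27 and −0.38 from 12 h on, and WDR77 and CLNS1A lie near 0.

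Levels of different genes were compared per length. PRMT5 had the highest level of the 9 in each library, from 979 to 1866 normalised reads per kilobase of exons. CLNS1A came next with 662 to 832, and its range met neither that of PRMT5 nor that of PRMT1 (319 to 544). The ranges of neighbours in the order PRMT1, CARM1 (339 to 510), WDR77 (251 to 375), and PRMT2 (217 to 307) overlapped over the libraries. Within each library, PRMT1 and CARM1 were both above WDR77. The order of PRMT1 and CARM1, and that of WDR77 and PRMT2, changed between libraries. PRMT3 (132 to 199), PRMT7 (70.8 to 104), and PRMT6 (53.0 to 77.2) were lower, and the ranges of PRMT7 and PRMT6 overlapped. At 0 h, PRMT5 made up 53.3% of the summed level of the 7 methyltransferases. At 48 h its share was 42.1% with miR-CTR and 51.6% with miR-16. With the longest transcript as the length, PRMT5 remained the highest and PRMT6 the lowest in all 9 libraries, while PRMT1 came second in 6 of them. The share of PRMT5 was then lower, at 44.6% at 0 h, and at 48 h it was 34.2% with miR-CTR and 42.2% with miR-16.

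**Figure D4:**
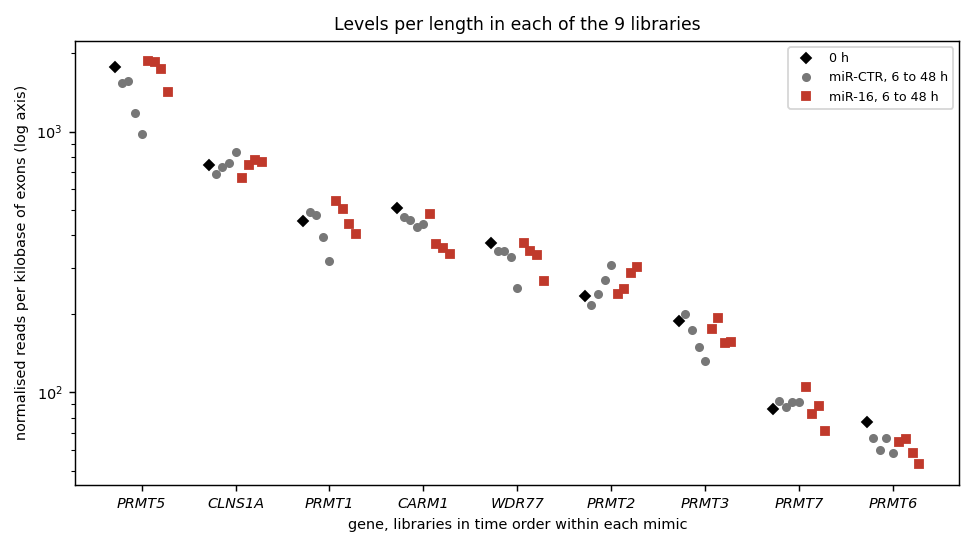
Normalised reads per kilobase of exons (y axis, logarithmic) of the 9 genes (x axis, in order of their median), with 1 point per library for 0 h (diamonds), miR-CTR (circles), and miR-16 (squares), each mimic in time order. PRMT5 is above the other genes in every library, and its lowest point, 979, is the miR-CTR library of 48 h.

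The genes around the methyltransferases were taken from 7 lists of the pathway, 62 of whose 64 genes had values. In the late window 2 of the 62 (3.23%) were above 0.5 and 3 (4.84%) below −0.5, beside 7.76% and 5.73% of all genes, and their median was −0.0025, beside 0.005. With 24 h alone, 1 was above 0.5 and 3 were below −0.5, beside 7.24% and 5.26% of all genes. With 48 h alone these numbers were 2 and 5, beside 10.4% and 8.96%.

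None of the 3 other arginine methyltransferases measured (METTL23, PRMT9, NDUFAF7) passed 0.5, and their median late logFC was 0.115. METTL23, the most expressed of them, was at 0.115. Of 4 other adaptors of PRMT5 or PRMT1, BTG1, an antiproliferative protein that binds PRMT1, had a late logFC of 0.52, which rested on the 48 h libraries (0.82, against 0.22 at 24 h). The 3′UTR of BTG1 had 1 match for miR-16 and 1 for the control, both 7mer-A1. The list's median was 0.0775.

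Among 10 genes of Sm and Sm-like proteins, the median late logFC was −0.0975 and only LSM11 passed the threshold. LSM11 belongs to the particle that processes histone mRNAs. It was 8.90 at 0 h, then 9.18, 9.03, 9.17, and 9.49 in the miR-CTR series and 8.65, 8.64, 8.41, and 8.27 in the miR-16 series. All miR-16 values were below all miR-CTR values, with a late logFC of −0.99 and a counting standard error of 0.0705. Its 3′UTR had 4 miR-16 matches, of which 2 were 8mers. SNRPB, the most expressed Sm gene, was at −0.035.

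None of the 10 genes of the SMN complex passed 0.5, and the late logFC was above 0 in 9 of the 10, beside 50.1% of all genes. In the other lists it was above 0 in 3 of 3 methyltransferases, 3 of 4 adaptors, and 2 of 10 Sm and Sm-like genes. For the SAM cycle, the methylated RNA-binding proteins, and the readers and erasers it was 5 of 13, 6 of 16, and 3 of 6. The median of the SMN complex was 0.085. SMN1 (0.005) and DDX20 (0.01) were close to 0, with counting standard errors of 0.0458 and 0.0524. The highest was STRAP at 0.33, and STRAP stood at −0.655 from 0 h with miR-CTR and at −0.325 with miR-16. SMN1 and SMN2 are near-identical copies, and the division of reads between them is uncertain.

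The 13 genes of the methionine and SAM cycle had a median late logFC of −0.1, and AHCYL2, a relative of the hydrolase AHCY that removes the by-product of methylation, was the one past the threshold at −0.84. AHCYL2 was 9.44 before transfection, and at 48 h it was 10.44 with miR-CTR and 9.55 with miR-16. Its 3′UTR had 2 miR-16 matches. AHCY itself, the most expressed, was at 0.135.

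Of 16 RNA-binding proteins known to be methylated on arginine, TAF15, a factor of transcription initiation, was below −0.5 at −0.675, and PABPC1, the main cytoplasmic poly(A)-binding protein, was above it at 0.575. The longest 3′UTR of TAF15 had no miR-16 match, but the search of every annotated transcript, not limited to protein-coding ones, found one. PABPC1 had no match for miR-16 in either search, while the search of every annotated transcript found a control match. The median of this list was −0.0225. None of the 6 readers and erasers of methylarginine passed 0.5, with a median of 0.0025 and SND1, the most expressed, at 0.085.

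**Figure D5:**
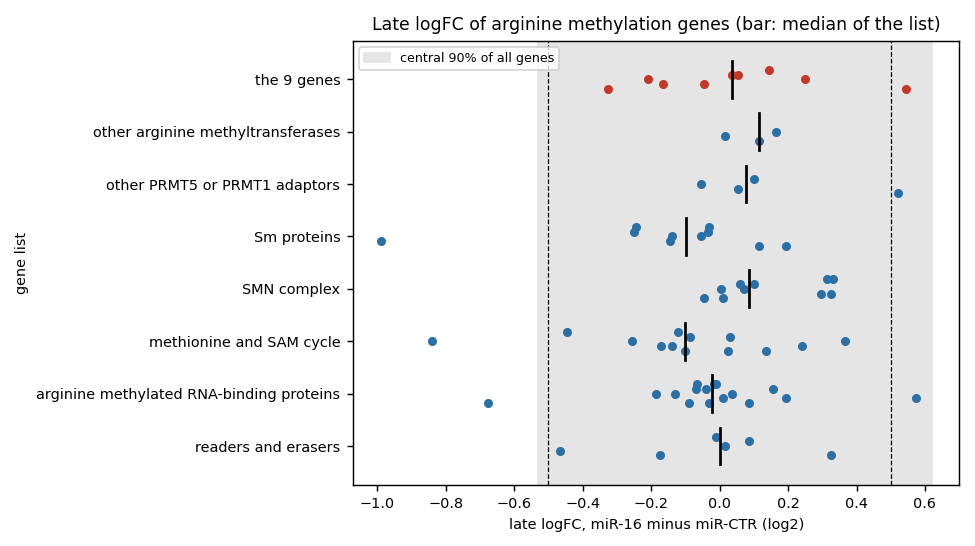
Late logFC (x axis, miR-16 minus miR-CTR on the log2 scale) of the 9 genes (top row) and of the genes of the 7 pathway lists (y axis), with 1 point per gene and a bar at each list's median. Grey covers the central 90% of all genes, from −0.53 to 0.62, and dashed lines mark 0.5 in both directions. LSM11, AHCYL2, and TAF15 are the 3 points on the left, and PABPC1 and BTG1 are beyond 0.5 on the right.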

How the data were processed

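The authors deposited 1 normalised log2 value per gene and library, with 2 decimals. The submitters' processing notes name FastQC, STAR 2.4.0a, featureCounts, Subread 1.5.0-p3, and hg38/GRCh38, without roles; strandedness is not given in the sources used here. All columns were mapped (0 left out), with their time points T0, T1, T2, T4, and T5 read as 0, 6, 12, 24, and 48 h in rising order; no column has T3, and the late values rest on this reading. Turned back to a linear scale, 100% of values up to 20 were whole multiples of 1 step per library within the rounding of the deposited decimals (0.00525 on the log2 scale), which gave the reads and the counting errors (Poisson). The deposited scale was used unchanged, with pseudocount 1. No p-value was computed.

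Annotation was GENCODE 29 on GRCh38, joined by symbol (13554 of 14839 matched). Python 3.11.15, pandas 2.3.3, numpy 2.4.6, and ViennaRNA 2.7.2 were used. Reads, steps, and calls were tested on simulated data. Members, lists, and alternatives were chosen with earlier results of these data known, and the pairing energies were added after the values were seen. Genes named are the 9, those of each list past 0.5 or most expressed, the 5 most and least like PRMT5 (1 of these is not reported here), neighbours, and CCND1, CCND3, and WEE1. PRMT9, NDUFAF7, PADI2, SMN1, SMN2, DDX20, SRM, and GEMIN6 are outside this rule and were named after their values were seen.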

Additional observations from a re-analysis of the deposited data

Results flagged for a closer look

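The logFC (miR-16 minus miR-CTR) took both signs over the 4 times in 6 of the 9 genes (PRMT2, PRMT3, CARM1, PRMT6, PRMT7, and CLNS1A). The share of all genes that did so was not counted. For PRMT3 and PRMT7 alone, the logFC had opposite signs at times at which both 95% counting intervals were clear of 0. With 1 library on each side of every difference, the change of sign was not tested. The logFC of PRMT3 was −0.18 at 6 h and 0.16 at 12 h, a difference of 0.34, and it was 0.24 at 48 h, a difference of 0.42 from 6 h. For PRMT7 the logFC was 0.17 at 6 h and −0.37 at 48 h, a difference of −0.54. The counting standard errors of these single values lay between 0.0624 and 0.073.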

How the results depend on the processing

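The labels carry no replicate numbers, so no replicate block was fitted; each logFC already compares libraries of the same time. Under 4 other scalings (centring on the median gene, quantile normalization, equal read totals, pseudocount 10) the counts were as reported, no late logFC of the 9 genes moved by more than 0.0461, and the sign changed for CLNS1A alone, near 0. The PRMT5 late logFC was −0.17 with 0 h as the reference, the reverse direction, and 0.26 in the early window. It was 0.56 at 24 h and 0.53 at 48 h alone, and leaving out a late library, added after seeing the data, gives these same values. Of the 9 genes, 0 were above 0.5 with a 1.5-fold threshold, with 0 h as the reference, or in the early window, and 1 (CARM1) was below −0.5 with 0 h as the reference. From 0 h with miR-16, 2 passed at 48 h alone and 0 at 1.5-fold, and with miR-CTR 3 passed at 48 h alone. Pathway genes above 0.5 numbered 1 at 24 h alone (7.24% of all genes) or at both late times (4.03%). They numbered 4 with 0 h as the reference (14.1%). At 1.5-fold they numbered 0, with no share over all genes counted. Those below −0.5 numbered 5 at 48 h alone (8.96%). In the early window 0 were above 0.5 and 0 below −0.5, where 3.48% of all genes passed in either direction. The PRMT5 to WDR77 ratio at 0 h was 5.92 with the longest transcript as the length. Of the 5 genes most like PRMT5, 1 was shared by root mean square difference and 2 without the 0 h library, when GEMIN6 entered. A miR-16 match in the 3′UTR was present in 0 of the 9 genes as an 8mer (5.01% of the 12027 genes) and in 2 with 6mers (46.8%). It was present in 3 over every transcript, with no share over all genes computed. A control match was present in 0 as an 8mer (2.2%). Depth limited PRMT6 most.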

Other observations

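The genes whose log2 values ran most like those of PRMT5 over the 9 libraries were sought among 9746 genes with a mean of at least 8. The Pearson r is a description, since the 9 libraries share the culture times, the mimics, and the 0 h library. It was highest for C12orf45 (0.981), MRPL9 of the mitochondrial ribosome (0.981), the mitochondrial elongation factor TSFM (0.979), HEATR2, an assembly factor of axonemal dyneins (0.978), and the receptor LRP12 (0.976). HEATR2 and LRP12 had a late logFC of 0.69 and 0.55, and stood at −1.135 and −0.625 from 0 h with miR-CTR. C12orf45, MRPL9, and TSFM had a smaller late logFC of 0.32, 0.23, and 0.17, and stood at −0.46, −0.28, and −0.22 from 0 h with miR-CTR. Among the genes running most opposite to PRMT5 were STX17, a SNARE of autophagosomes (−0.991), CD109 (−0.984), the beta-catenin inhibitor CTNNBIP1 (−0.981), and ZFYVE1 (−0.971). CTNNBIP1 went from 7.69 at 0 h to 9.05 with miR-CTR and 8.15 with miR-16 at 48 h. Among the other methyltransferases and partners, r was 0.90 for PRMT1, 0.782 for WDR77, and 0.778 for PRMT3, and −0.645 for CLNS1A. The order of the genes depended on the measure of likeness.

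PADI2, which converts arginine to citrulline, moved from 8.39 at 0 h to 10.67 with miR-CTR and 10.04 with miR-16 at 48 h. Its late logFC was −0.465, short of the threshold. SRM, the spermidine synthase, stood at −0.615 from 0 h with miR-CTR and −0.25 with miR-16, with a late logFC of 0.365.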
